A study of Homo sapiens with 15 samples.

Results

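OVCAR4 is an established cell line of high-grade serous ovarian carcinoma, and the study grew it under platinum drugs until resistant lines were obtained. The genes described here are those that were expressed in the parental line and had lost much of their mRNA in all 4 resistant lines. They were chosen from the deposited expression table by 2 conditions: a parental mean of at least 1 log2 RPKM (2 RPKM, a read density scaled to transcript length and sequencing depth), and a mean in each of the 4 resistant lines at least 1.5 log2 units (2.83-fold) below the parental mean. The rule selected 111 of 16604 measured genes, or 0.915% of the 12132 genes with a parental mean of at least 1. The contrasts with the parental line chose the genes, so the falls are given as a description, without a test.

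The 5 lines were sequenced in 3 biological replicates each. The parental line, labelled Ovcar4Parental, is sensitive to carboplatin and cisplatin. Ov4Cis was made by growing OVCAR4 in rising concentrations of cisplatin, and Ov4Carbo in rising concentrations of carboplatin. Ov4Carbo4 and Ov4Carbo7 are each a single-cell clone of Ov4Carbo, so the 3 carboplatin-resistant lines share one selection and each clonal line stands for 1 cell of it. The labels name no engineered allele, and they do not say whether drug was present at harvest.

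Cisplatin and carboplatin form adducts and crosslinks on DNA, and cells selected under them can differ from their parents in drug handling, repair, survival signals and cell state. Epithelial carcinoma cells hold together through cadherins, claudins and keratin filaments, and they keep an apical surface through vesicle traffic. Transcription factors of the grainyhead and OVO families and the ESRP splicing factors maintain this state, whereas smooth muscle actin, transgelin and calponin belong to a contractile programme. Genes of both kinds were among the 111.

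As a check of the labels, PAX8, a factor of Müllerian epithelium, had line means between 5.85 and 6.74 log2 RPKM in all 5 lines, whereas WT1 was at -5.07 in the parental line. Of 20 serous carcinoma markers 18 were measured, and their summed RPKM was 1349 to 1573 in the parental samples, 620 to 782 in those of Ov4Cis, 846 to 954 in Ov4Carbo, 910 to 966 in Ov4Carbo4 and 644 to 655 in Ov4Carbo7. KRT7 is in this list and among the 111 genes, so the rule itself brings about part of the fall of these sums. Its means were 8.28, -0.57, 6.08, 5.64 and 5.48 log2 RPKM in the same order of lines. The sum without KRT7 was not computed. In Ov4Cis the epithelial markers CDH1, KRT19 and MUC16 had means of -3.52, -2.45 and -1.73, beside 4.63, 6.21 and 4.60 in the parental line. KRT8, KRT18 and BCAM were lower too, but remained at 4.50, 6.32 and 5.87, beside 7.09, 7.53 and 7.26. SOX17 and MECOM were higher, at 7.76 and 7.39, beside 6.91 and 6.55. Of 12 leukocyte markers 2 were measured, with a summed RPKM of at most 1.96 in any sample, and PTPRC was not among the measured genes. Of 16 fibroblast and stromal markers 11 were measured. Their sum was 332 to 452 RPKM in the parental samples and 92.7 to 164 in the resistant ones. TAGLN, ACTA2 and COL1A2 belong to both this list and the 111 genes. Without these 3 the sum was 95.5 to 105 RPKM in the parental samples. It lay above that range in Ov4Cis (111 to 131) and Ov4Carbo4 (139 to 146) and overlapped it in Ov4Carbo (104 to 138) and Ov4Carbo7 (83.7 to 106). Of 8 endothelial markers 5 were measured, and their sum was higher in the resistant samples (20.3 to 111 RPKM) than in the parental ones (9.82 to 13.1). The single endothelial markers did not move together. In Ov4Carbo the means of ENG and TIE1 were 4.26 and 0.32, beside 1.98 and 0.18 in the parental line. Those of CDH5, VWF and KDR were 2.15, -1.65 and -4.59, beside 2.46, -0.19 and -1.88. The part of these markers in the falls was not tested. In RNA from a whole culture, fewer cells that express a gene and less RNA per cell cannot be told apart.

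**Figure D1:**
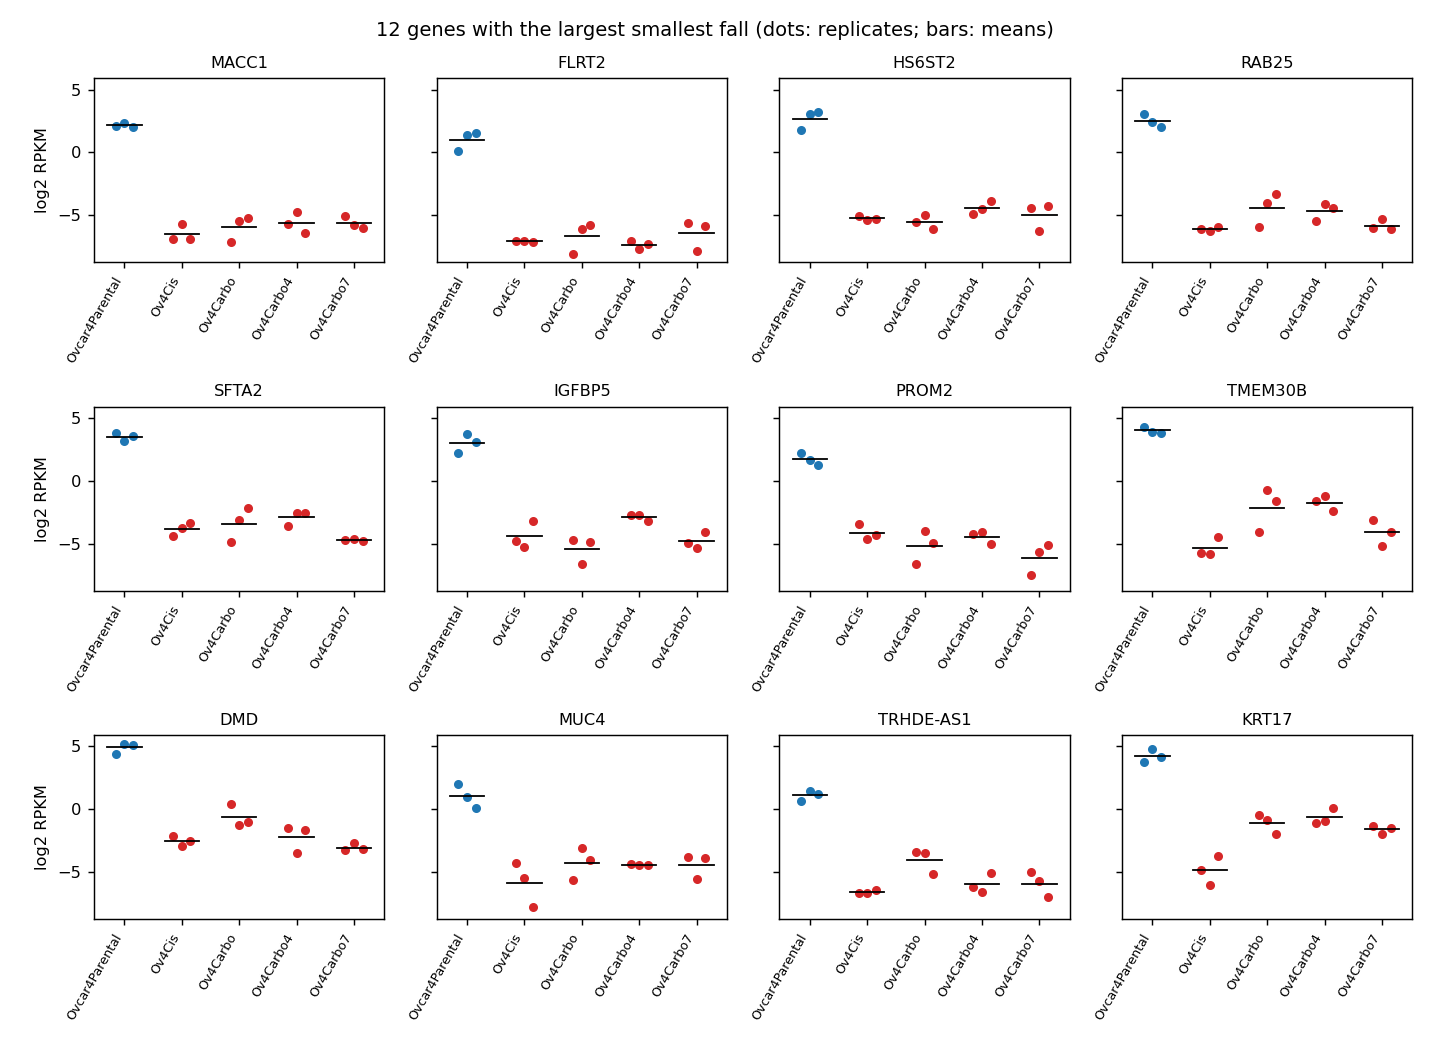
Values of the 12 genes with the largest smallest fall over the 4 lines; the y axis is log2 RPKM, the x axis the line, dots are single replicates (blue parental, red resistant) and bars line means. In every panel the 12 resistant values lie below the 3 parental values.

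The deepest falls were those of MACC1, FLRT2, HS6ST2 and RAB25, whose smallest fall among the 4 lines was 7.75, 7.45, 7.08 and 6.92 log2 units. MACC1 encodes a regulator of MET receptor expression known from metastasis of colon cancer. FLRT2 is a transmembrane adhesion protein that binds guidance receptors, HS6ST2 a sulfotransferase of heparan sulfate chains, and RAB25 a small GTPase of epithelial recycling endosomes. The sequences before their start sites are shown because these 4 genes had the deepest falls. Each is the window of 250 bases before the start in RefSeq (GRCh38.p14), written 5′ to 3′ on the gene's strand, with CpG dinucleotides in capitals.
MACC1 (chr7:20217385-20217634, minus strand): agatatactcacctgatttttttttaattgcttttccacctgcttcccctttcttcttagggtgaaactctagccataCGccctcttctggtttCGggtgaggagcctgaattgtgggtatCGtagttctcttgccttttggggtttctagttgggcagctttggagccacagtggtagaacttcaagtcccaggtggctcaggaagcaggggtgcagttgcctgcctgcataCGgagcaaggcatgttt
FLRT2 (chr14:85529894-85530143, plus strand, the first of 3 listed windows): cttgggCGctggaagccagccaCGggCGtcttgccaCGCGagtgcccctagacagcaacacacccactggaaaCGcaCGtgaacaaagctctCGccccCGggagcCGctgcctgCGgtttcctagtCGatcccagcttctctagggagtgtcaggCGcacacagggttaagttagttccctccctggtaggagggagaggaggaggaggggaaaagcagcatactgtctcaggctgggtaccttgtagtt
HS6ST2 (chrX:132961371-132961620, minus strand): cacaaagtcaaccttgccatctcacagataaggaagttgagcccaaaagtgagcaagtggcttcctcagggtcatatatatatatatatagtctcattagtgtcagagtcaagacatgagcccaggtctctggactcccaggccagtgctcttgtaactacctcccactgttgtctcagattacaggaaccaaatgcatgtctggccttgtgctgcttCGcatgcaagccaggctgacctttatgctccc
RAB25 (chr1:156060910-156061159, plus strand): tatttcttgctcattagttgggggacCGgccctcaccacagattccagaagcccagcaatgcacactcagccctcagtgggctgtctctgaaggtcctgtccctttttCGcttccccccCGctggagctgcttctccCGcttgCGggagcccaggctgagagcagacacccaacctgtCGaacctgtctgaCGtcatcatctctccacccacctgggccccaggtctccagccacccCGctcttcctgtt
The windows held 4 CpG dinucleotides in MACC1, 13 in FLRT2, 1 in HS6ST2 and 8 in RAB25, against a median of 21 over the windows of 11161 measured genes. The E-box letters CACCTG or CAGGTG, which ZEB and SNAI factors can bind, occurred 3 times in the MACC1 window, 1 time in that of RAB25 and not in the other two, counting both strands. They were found in 16.1% of all windows of this length. The letters AACCGGTT (grainyhead) and TGANTCA (AP-1) were absent from all 4 windows and present in 0.125% and 3.83% of all windows. Of the 111 genes 68 had a window (61.3%), which is too few for a comparison of sequence over the whole set.

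MACC1 was measured at 2.10, 2.37 and 1.99 log2 RPKM in the parental replicates. Its values were -6.88, -5.67 and -6.88 in Ov4Cis, -7.13, -5.42 and -5.21 in Ov4Carbo, -5.67, -4.74 and -6.37 in Ov4Carbo4 and -5.07, -5.79 and -5.996 in Ov4Carbo7. All 12 resistant samples were near the floor of the table, whose lowest value is -8.18, and they overlapped each other. FLRT2 stood at 0.15, 1.38 and 1.54 in the parental samples, with replicate 1 lower than the other two. Its resistant values were -6.995, -6.995 and -7.13 in Ov4Cis, -8.04, -6.11 and -5.75 in Ov4Carbo, -6.995, -7.68 and -7.30 in Ov4Carbo4 and -5.59, -7.86 and -5.84 in Ov4Carbo7. HS6ST2 likewise had parental values of 1.79, 3.02 and 3.21 and resistant values from -6.23 to -3.87, with no line apart from the rest. RAB25 went from 3.05, 2.39 and 2.04 to -6.11, -6.23 and -5.94 in Ov4Cis, -5.94, -4.03 and -3.30 in Ov4Carbo, -5.42, -4.10 and -4.40 in Ov4Carbo4 and -5.996, -5.31 and -6.11 in Ov4Carbo7. Its highest resistant value, in Ov4Carbo replicate 3, was still more than 5 log2 units under the lowest parental value. Between the resistant lines, MACC1, FLRT2 and HS6ST2 did not pass a moderated F-test (limma, adjusted p under 0.05).

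The degree of loss differed from gene to gene. The smallest fall among the 4 lines ranged from 1.505 to 7.75 log2 units with a median of 2.52. It was at least 2 for 73 genes, at least 3 for 38, at least 4 for 24 and at least 5 for 11. The median fall of the 111 genes was -4.84 for Ov4Cis, -3.82 for Ov4Carbo, -3.31 for Ov4Carbo4 and -4.17 for Ov4Carbo7, where the medians of all genes were 0.04, 0.03, 0.07 and 0.02. The number of genes with a fall of 5 or more was 55 for Ov4Cis, 35 for Ov4Carbo, 30 for Ov4Carbo4 and 43 for Ov4Carbo7. Parental means of the set ran from 1.02 to 8.28 with a median of 3.02, near the median of all genes (2.77). For all 111 genes the 12 resistant values lay below the 3 parental values, a separation found for 4.95% of all genes and for 5.36% of those with a parental mean of at least 1. The rule itself brings about this separation, and nothing is read from it.

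How far a gene was turned down was described by its line mean: 0 log2 RPKM or higher (at least 1 RPKM), between -3 and 0, or below -3 (under 0.125 RPKM). In Ov4Cis 41 of the 111 genes were below -3, in Ov4Carbo 27, in Ov4Carbo4 20 and in Ov4Carbo7 34. The same level was found for 0.585%, 0.272%, 0.346% and 0.387% of the genes with a parental mean of at least 1, and for 2.38%, 4.04%, 3.17% and 3.16% of all genes. In no line were 53 of the genes below -3, in 1 line 22, in 2 lines 16, in 3 lines 12, and in all 4 lines 8 (0.0659% of the genes with a parental mean of at least 1). These 8 were MACC1, FLRT2, HS6ST2, RAB25, the prominin PROM2, the membrane mucin MUC4, the antisense transcript TRHDE-AS1 and the zinc-finger factor OVOL1. At the other end, 20 genes kept at least 1 RPKM in all 4 lines, among them TAGLN, NPTX2, LAMA3, FSTL1, IGFBP3 and KRT80, so that their mRNA was reduced but not lost.

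**Figure D2:**
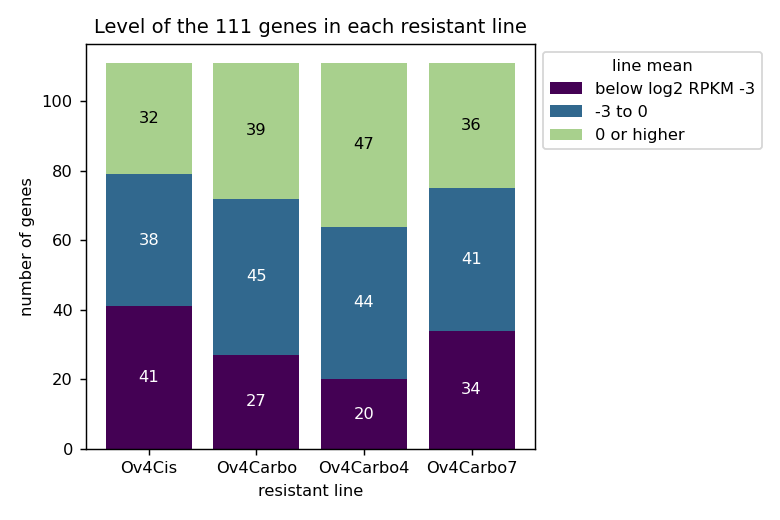
Number of the 111 genes (y axis) by their mean level in each resistant line (x axis), in 3 classes of log2 RPKM. Ov4Cis has the most genes below -3 (41) and Ov4Carbo4 the fewest (20).

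At the edge of the rule stood TNNC1 (smallest fall 1.505), SCARA3 (1.51), FABP5P7 (1.53), IL1R2 and FAM107A (1.54 each). Just outside were LMCD1, CXCL16 and B3GNT3 (1.48 each), KCNK15 (1.44) and CRACDL (1.43). The limit of 1.5 therefore divides genes of nearly equal fall. FABP5P7 is a pseudogene copy of FABP5, so its reads may belong to the parent gene, and KRTAP2-3 also has near-identical copies.

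Of the 111 genes 107 had a symbol and 104 were protein coding (93.7%, against 78.6% of the 16499 genes of the table found in GENCODE v29). That background was not limited to a parental mean of at least 1, as the set was, so nothing is read from the contrast. Grouped by what their products are known to do, the largest groups were 17 secreted signals, receptors and adaptors, 14 adhesion, junction and keratin genes of epithelia, 12 contractile and actin genes, 9 proteases and protease inhibitors, and 8 genes of apical membrane and vesicle traffic. Smaller groups were 6 channels and transporters, 5 neuronal and guidance adhesion proteins, 4 epithelial transcription and splicing factors, 4 matrix genes, 4 calcium-binding proteins, 3 glycan enzymes and 3 other transcription regulators, and 22 genes were in no group. The groups were formed after the values had been seen and serve only to order the description.

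The 4 epithelial transcription and splicing factors had the lowest group median in Ov4Cis, -8.29 log2 units from the parental line, against -3.52 in Ov4Carbo, -4.17 in Ov4Carbo4 and -6.26 in Ov4Carbo7. GRHL2, a grainyhead factor that activates junction genes, was at 3.41, 3.42 and 3.45 in the parental samples and at -6.37, -6.52 and -5.38 in Ov4Cis. It measured -4.95, -1.68 and -1.28 in Ov4Carbo, -0.37, -0.51 and -0.53 in Ov4Carbo4 and -6.37, -6.05 and -7.13 in Ov4Carbo7. Ov4Carbo4 thus kept most of the remaining GRHL2 mRNA, and Ov4Carbo replicate 1 was more than 3 log2 units below the other two replicates of that line. ESRP1, which directs epithelial splice forms, was at 5.48, 5.05 and 4.81 in the parental line, -3.90, -3.74 and -5.21 in Ov4Cis, 1.82, 3.14 and 3.90 in Ov4Carbo, 3.47, 3.39 and 3.32 in Ov4Carbo4 and -0.82, -0.23 and -0.999 in Ov4Carbo7. The values formed 3 levels without overlap: Ov4Carbo and Ov4Carbo4 above Ov4Carbo7, and Ov4Carbo7 above Ov4Cis. OVOL1, a repressor of mesenchymal genes, had a parental mean of 1.42 ± 0.22 (SD, n = 3). Its mean was below -3 log2 RPKM (0.125 RPKM) in each resistant line. In Ov4Carbo and Ov4Carbo4 the OVOL1 means were just under this limit, at -3.10 and -3.13. Ov4Carbo replicate 3 (-1.92) and Ov4Carbo4 replicates 1 and 2 (-2.82 and -2.79) were above it. TRIM29, a tripartite motif protein of stratified epithelia, differed from the parental line by -7.12 in Ov4Cis and -2.52 in Ov4Carbo.

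These factors also differed between the resistant lines. The rule set no condition on these contrasts, but it used the same line means, and the factors were grouped after their values were seen. GRHL2 was lower in Ov4Carbo7 than in Ov4Carbo4 by -6.05 log2 units (SE 0.72, adjusted p = 2.32e-05), and ESRP1 in the same contrast by -4.07 log2 units (SE 0.48, adjusted p = 1.98e-05). Against Ov4Cis, Ov4Carbo4 was higher for GRHL2 by 5.62 log2 units (SE 0.72, adjusted p = 5.41e-05). In Ov4Carbo4 against Ov4Cis 4 of 4 factors were called higher (7.72% of all genes were), and in Ov4Carbo7 against Ov4Carbo4 3 of 4 were called lower (9.86% of all genes were). Of a wider list of 20 epithelial regulators 16 were measured and 3 belonged to the set. Of the other 13, those called lower than in the parental line numbered 9, 7, 5 and 4 for Ov4Cis, Ov4Carbo, Ov4Carbo4 and Ov4Carbo7. Over all genes 7.41%, 6.93%, 7.7% and 7.75% were called lower in these lines, and 8.46%, 5.76%, 7.43% and 9.26% higher. The 16 measured regulators had median differences of -3.55, -1.39, -1.09 and -0.87, beside the medians of all genes near 0 given above.

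Among the adhesion and keratin genes, KRT7 had the highest parental level of the whole set. This keratin of simple epithelia was at 8.30, 8.11 and 8.43 log2 RPKM in the parental samples and at -0.13, -1.06 and -0.52 in Ov4Cis. In the carboplatin-selected lines it stayed high, at 5.79, 5.92 and 6.53 in Ov4Carbo, 5.89, 5.27 and 5.75 in Ov4Carbo4 and 5.30, 5.33 and 5.82 in Ov4Carbo7. KRT7 was called lower in Ov4Cis than in Ov4Carbo by -6.64 log2 units (SE 0.26, adjusted p = 4.21e-09), and no value of Ov4Cis came within 5 log2 units of those of the other three lines. EPPK1, a linker of keratin filaments, went from 4.72, 5.15 and 4.95 to -5.94, -3.87 and -4.44 in Ov4Cis, 1.71, 1.03 and 0.76 in Ov4Carbo, 2.30, 2.28 and 2.54 in Ov4Carbo4 and -2.23, -0.84 and -0.74 in Ov4Carbo7. It too was lowest in Ov4Cis, and Ov4Carbo4 exceeded Ov4Cis by 7.13 log2 units (SE 0.49, adjusted p = 3.08e-07). KRT17, a keratin of basal and stressed epithelia, was among the deepest falls, from 4.26 ± 0.51 to -4.84 ± 1.15 in Ov4Cis and -1.07 ± 0.77 in Ov4Carbo (SD, n = 3).

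The claudins of the set behaved unlike each other. CLDN7 had means of 5.28 ± 0.39 for the parental line, -0.08 ± 0.40 for Ov4Cis, 2.87 ± 0.99 for Ov4Carbo, 2.56 ± 0.45 for Ov4Carbo4 and 0.99 ± 0.31 for Ov4Carbo7 (SD, n = 3). CLDN10 started from only 1.09 ± 0.31 and was lowest in the clonal lines. It was at -5.18, -6.88 and -6.88 in Ov4Carbo4 and -6.45, -5.71 and -7.30 in Ov4Carbo7, against -0.13, -1.81 and -1.54 in Ov4Cis. In Ov4Carbo it was at -5.01, -1.89 and -1.35. Replicate 1 of Ov4Carbo was thus near the clonal lines, and replicates 2 and 3 were near Ov4Cis. Ov4Carbo7 was below Ov4Cis for CLDN10 by -5.33 log2 units (SE 0.84, adjusted p = 0.000315). The laminin chain LAMA3, cingulin (CGN) and KRT80 kept means of 1.64 log2 RPKM or more in every resistant line. LAMA3, for instance, was at 8.08, 7.94 and 7.01 in the parental samples and between 4.53 and 5.93 in the 12 resistant samples. P-cadherin (CDH3) differed from the parental line by -5.44 in Ov4Cis and -2.67 in Ov4Carbo4.

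Other genes of the same families were lower in some lines without meeting the rule. A list of 35 epithelial junction genes had 33 measured, of which 5 were in the set, among them CDH3, CLDN7, CGN and EPPK1. Of the 28 others, 20, 7, 5 and 13 were called lower in the 4 lines in this order, and 1 was called higher, in Ov4Carbo4. The median differences over all 33 were -2.13, -0.66, -0.57 and -1.04. Of 14 measured keratins 4 were in the set. Among the other 10, those called lower numbered 8, 5, 6 and 8 in the 4 lines in the same order, and the medians over all 14 were -3.37, -2.11, -1.84 and -2.55. These calls share the parental samples with the rule and with each other, and they are counts beside the background of 6.93% to 7.75%.

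The 12 contractile and actin genes include the smooth muscle proteins TAGLN (transgelin), MYL9 (a regulatory myosin light chain), CNN1 (calponin), ACTA2 (smooth muscle actin) and LMOD1 (leiomodin). TAGLN, one of the most abundant mRNAs of the set, was at 7.78, 8.24 and 8.42 log2 RPKM in the parental samples. Its resistant values were 0.70, 1.84 and 1.71 in Ov4Cis, 4.43, 2.81 and 2.54 in Ov4Carbo, 4.26, 3.07 and 4.37 in Ov4Carbo4 and 2.44, 2.76 and 2.99 in Ov4Carbo7. Even its highest resistant value was more than 3 log2 units under the lowest parental one. MYL9 had values of 5.97, 6.73 and 6.67 in the parental line and -0.64, -1.51 and -0.73 in Ov4Cis. In Ov4Carbo it was at 4.04, 2.51 and 2.03, in Ov4Carbo4 at 3.71, 2.99 and 3.50 and in Ov4Carbo7 at -2.87, 1.07 and -2.74, where replicate 2 stood apart from the other two. Ov4Carbo7 was called lower than Ov4Carbo4 for MYL9 by -4.91 log2 units (SE 0.85, adjusted p = 0.000417) and for CNN1 by -4.49 log2 units (SE 0.62, adjusted p = 7e-05).

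ACTA2 went the other way between the clonal lines, at -3.62, -3.58 and -4.44 in Ov4Carbo4 and 0.02, 0.20 and -0.14 in Ov4Carbo7, after 1.10, 2.26 and 1.84 in the parental samples. Ov4Carbo7 exceeded Ov4Carbo4 for ACTA2 by 3.91 log2 units (SE 0.31, adjusted p = 1.05e-06). The contractile genes were therefore not reduced in a fixed proportion to one another. TNNC1, the slow and cardiac troponin C, was at 7.40, 7.08 and 7.12 in the parental line and 0.55, 2.09 and 1.90 in Ov4Cis. It remained at 5.63, 5.68 and 5.68 in Ov4Carbo, 4.81, 4.40 and 4.82 in Ov4Carbo4 and 5.59, 5.69 and 5.81 in Ov4Carbo7. Its fall was thus smaller in the carboplatin-selected lines than in Ov4Cis, which was below Ov4Carbo by -4.15 log2 units (SE 0.30, adjusted p = 7.71e-07). Dystrophin (DMD), which anchors actin at the membrane, fell more evenly, with differences from the parental line of -7.44, -5.50, -7.11 and -7.95 in Ov4Cis, Ov4Carbo, Ov4Carbo4 and Ov4Carbo7.

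The matrix genes were COL1A2, COL8A1, FNDC1 and FBN2. FBN2, a fibrillin of elastic microfibrils, had parental values of 5.49, 5.82 and 6.11 and Ov4Cis values of -4.71, -4.29 and -3.40. It was at 2.31, 2.17 and 2.69 in Ov4Carbo, 2.76, 2.30 and 3.14 in Ov4Carbo4 and 2.75, 3.37 and 3.68 in Ov4Carbo7. FBN2 was higher in Ov4Carbo7 than in Ov4Cis by 7.40 log2 units (SE 0.34, adjusted p = 1.64e-08), and no value of the carboplatin-selected lines overlapped those of Ov4Cis. COL1A2, a chain of type I collagen, was low throughout, with a parental mean of 1.39 ± 0.42 and resistant means from -4.41 to -2.85.

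Among the secreted signals and receptors, IGFBP5 and IGFBP3, which bind insulin-like growth factors, fell to different levels. IGFBP5 went from 2.25, 3.75 and 3.07 in the parental samples to means of -4.41, -5.37, -2.88 and -4.78 in Ov4Cis, Ov4Carbo, Ov4Carbo4 and Ov4Carbo7. IGFBP3 kept means of 2.61, 2.66, 2.21 and 4.55 after 6.39 ± 0.34 in the parental line (SD, n = 3). FSTL1, a secreted glycoprotein, likewise stayed between 2.48 and 5.43 in the 12 resistant samples after 6.72, 6.93 and 7.26 in the parental ones. SFRP1, a secreted Wnt antagonist, differed by -2.23, -3.42, -2.91 and -4.39 in the same order of lines, from a parental mean of 3.25.

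The natriuretic peptide receptors NPR1 and NPR3 were both in the set. NPR3, which clears these peptides, was at 1.34, 2.67 and 2.78 in the parental line and -1.44, 0.55 and 0.15 in Ov4Cis. It had -7.51, -4.68 and -4.80 in Ov4Carbo, -0.22, -0.36 and -0.44 in Ov4Carbo4 and -3.85, -4.65 and -4.14 in Ov4Carbo7. Ov4Carbo4 was higher than Ov4Carbo, the line it was cloned from, by 5.32 log2 units (SE 0.70, adjusted p = 0.000106). CBLC, a ubiquitin ligase of epithelia that acts on growth factor receptors, was at 4.36, 3.80 and 3.42 in the parental samples. It was at -5.55, -4.68 and -6.69 in Ov4Cis, -1.01, 1.10 and 1.68 in Ov4Carbo, 2.07, 2.33 and 2.04 in Ov4Carbo4 and -4.98, -4.37 and -4.71 in Ov4Carbo7. Ov4Cis and Ov4Carbo7 were near the floor, whereas Ov4Carbo4 was less than 2.5 log2 units below the parental samples. CBLC differed by 7.78 log2 units (SE 0.61, adjusted p = 9.5e-07) between Ov4Carbo4 and Ov4Cis, and by -6.83 log2 units (SE 0.61, adjusted p = 2.38e-06) between Ov4Carbo7 and Ov4Carbo4. The substance P receptor TACR1 was lowest in Ov4Carbo, at -5.21, -6.45 and -6.69, and IL1R2, a decoy receptor for interleukin 1, in Ov4Carbo4, at -1.55, -1.34 and -1.89.

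Of 44 measured growth factor receptors, ligands and adaptors, MACC1 alone was in the set. Of the other 43, those called lower numbered 15, 13, 9 and 13 in Ov4Cis, Ov4Carbo, Ov4Carbo4 and Ov4Carbo7, and those called higher 6, 2, 5 and 2. The median over all 44 was -0.60, -0.51, 0.00 and -0.43 in the same order. HS6ST2 was 1 of 20 measured heparan sulfate genes, and 2 of the 19 others were called lower in each line, with 2, 0, 4 and 0 called higher. FLRT2 was 1 of 27 measured guidance genes, of which 7, 10, 2 and 8 of the other 26 were called lower and 3, 3, 5 and 2 higher. SFRP1 was 1 of 30 measured Wnt genes, with 7, 9, 3 and 11 of the other 29 called lower and 3, 1, 5 and 2 higher. Of all genes 7.41%, 6.93%, 7.7% and 7.75% were called lower, and 8.46%, 5.76%, 7.43% and 9.26% higher, in the same order of lines. No Notch pathway gene of 21 measured was in the set, nor any of 475 ZNF genes or 37 KCN channel genes. Of 273 SLC genes 2 were in it (SLC8A1 and SLC44A2). The set holds 0.669% of all 16604 genes, and nothing is read from these counts.

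The 9 proteases and inhibitors included 4 trypsin-like serine proteases of the cell surface or secretions. ST14 (matriptase), which works at the surface of epithelia, was at 5.54, 5.77 and 5.56 in the parental samples, -1.75, -1.33 and -1.34 in Ov4Cis and -0.43, 1.000 and 0.04 in Ov4Carbo7. It stayed at 3.31, 3.41 and 2.96 in Ov4Carbo and 4.01, 3.69 and 3.77 in Ov4Carbo4. Ov4Carbo7 was below Ov4Carbo4 for ST14 by -3.62 log2 units (SE 0.28, adjusted p = 8.58e-07). TMPRSS4 and PRSS22 differed from the parental line by -9.16 and -8.76 in Ov4Cis and by -2.73 and -2.90 in Ov4Carbo. Both were called lower in Ov4Cis than in Ov4Carbo, TMPRSS4 by -6.43 log2 units (SE 0.44, adjusted p = 4.78e-07) and PRSS22 by -5.85 log2 units (SE 0.50, adjusted p = 3.1e-06). PRSS21 (testisin) departed from these, at 3.31, 3.38 and 3.08 in the parental line, 0.46, 1.04 and 1.17 in Ov4Cis, -0.81, -0.50 and -0.37 in Ov4Carbo, 1.41, 1.38 and 1.25 in Ov4Carbo4 and -6.05, -4.44 and -6.17 in Ov4Carbo7. Its near-complete loss was found in Ov4Carbo7, which was below Ov4Carbo4 by -6.91 log2 units (SE 0.36, adjusted p = 4.6e-08). Of 18 measured membrane serine proteases and inhibitors 3 were in the set. Of the other 15, those called lower numbered 10, 7, 5 and 10 in Ov4Cis, Ov4Carbo, Ov4Carbo4 and Ov4Carbo7. At most 2 were called higher in any line, and the medians over all 18 were -3.80, -1.17, -0.78 and -2.45. Over all genes 6.93% to 7.75% were called lower in these lines, and 5.76% to 9.26% higher.

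TRHDE, an ectoenzyme that cleaves thyrotropin-releasing hormone, was at 2.66, 3.75 and 3.43 in the parental samples, -5.24, -5.55 and -5.34 in Ov4Cis and 0.15, -1.21 and -1.30 in Ov4Carbo. In the clones it was at -5.38, -5.59 and -5.24 in Ov4Carbo4 and -5.31, -3.13 and -5.34 in Ov4Carbo7. Ov4Carbo4 was below Ov4Carbo by -4.61 log2 units (SE 0.54, adjusted p = 4.54e-05). PLA2G3, a secreted phospholipase, was at 1.16, 0.73 and 1.81 in the parental samples, close to the limit of the rule. It had -3.76, -5.21 and -3.99 in Ov4Cis, -1.28, -0.12 and -0.20 in Ov4Carbo, -0.11, -0.21 and -0.71 in Ov4Carbo4 and -5.94, -4.35 and -6.05 in Ov4Carbo7. Ov4Carbo7 was below Ov4Carbo by -4.91 log2 units (SE 0.51, adjusted p = 3.03e-05).

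Genes of the apical membrane and vesicle traffic had the highest group median of the smallest fall among the groups of 8 or more genes, 3.92 log2 units. Besides RAB25 and PROM2 they include TMEM30B, a partner of phospholipid flippases. TMEM30B was at 4.31, 3.89 and 3.85 in the parental samples, -5.75, -5.79 and -4.47 in Ov4Cis, -4.03, -0.71 and -1.61 in Ov4Carbo, -1.55, -1.22 and -2.40 in Ov4Carbo4 and -3.07, -5.14 and -4.06 in Ov4Carbo7. BICDL2, an adaptor of vesicle transport, and ATP2C2, a calcium pump of the secretory pathway, differed from the parental line by -7.15 and -8.04 in Ov4Cis and by -7.84 and -7.51 in Ov4Carbo7. In Ov4Carbo4 the differences were smaller, -3.68 and -4.12. The sodium-calcium exchanger SLC8A1 showed the opposite order, at 4.34, 4.37 and 4.05 in the parental samples and 1.54, 1.03 and 1.79 in Ov4Cis. It measured -0.21, -1.70 and -3.03 in Ov4Carbo, -4.82, -4.40 and -4.52 in Ov4Carbo4 and 1.71, 1.80 and 1.58 in Ov4Carbo7, and Ov4Carbo7 exceeded Ov4Carbo4 by 6.28 log2 units (SE 0.50, adjusted p = 9.5e-07).

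EYA2, a transcriptional coactivator of the eyes absent family, and ARMCX2, an armadillo repeat gene of the X chromosome, also differed strongly between lines. EYA2 was at 4.39, 4.37 and 4.37 in the parental samples and -3.24, -1.64 and -2.07 in Ov4Cis. It was at -4.17, -4.40 and -3.47 in Ov4Carbo, 0.84, 0.46 and 0.68 in Ov4Carbo4 and -0.56, -1.36 and -0.76 in Ov4Carbo7. Ov4Carbo4 was higher than Ov4Carbo by 4.67 log2 units (SE 0.36, adjusted p = 1.8e-06). ARMCX2 was at 2.98, 3.27 and 3.05 in the parental samples and 0.60, 0.78 and 0.20 in Ov4Cis. It was at -7.30, -6.78 and -6.88 in Ov4Carbo, -5.79, -6.11 and -5.94 in Ov4Carbo4 and -5.84, -6.78 and -5.71 in Ov4Carbo7. Near-complete loss of ARMCX2 was thus shared by the 3 carboplatin-selected lines, and Ov4Cis exceeded Ov4Carbo by 7.52 log2 units (SE 0.25, adjusted p = 1.59e-09). Of the ARMCX, BEX and TCEAL genes of the same X-chromosome family cluster, 14 others were measured. Those called lower numbered 3, 0, 0 and 2 in Ov4Cis, Ov4Carbo, Ov4Carbo4 and Ov4Carbo7, and those called higher 1, 0, 0 and 0. SFRP1, TIMP3 and ARMCX2 were the set's members among 24 measured genes often reported as methylated in ovarian cancer. Of the other 21, those called lower numbered 1, 3, 4 and 1 and those called higher 6, 7, 7 and 7. Over all genes 7.41%, 6.93%, 7.7% and 7.75% were called lower, and 8.46%, 5.76%, 7.43% and 9.26% higher, in the same order of lines. DNA methylation was not measured in these samples.

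**Figure D3:**
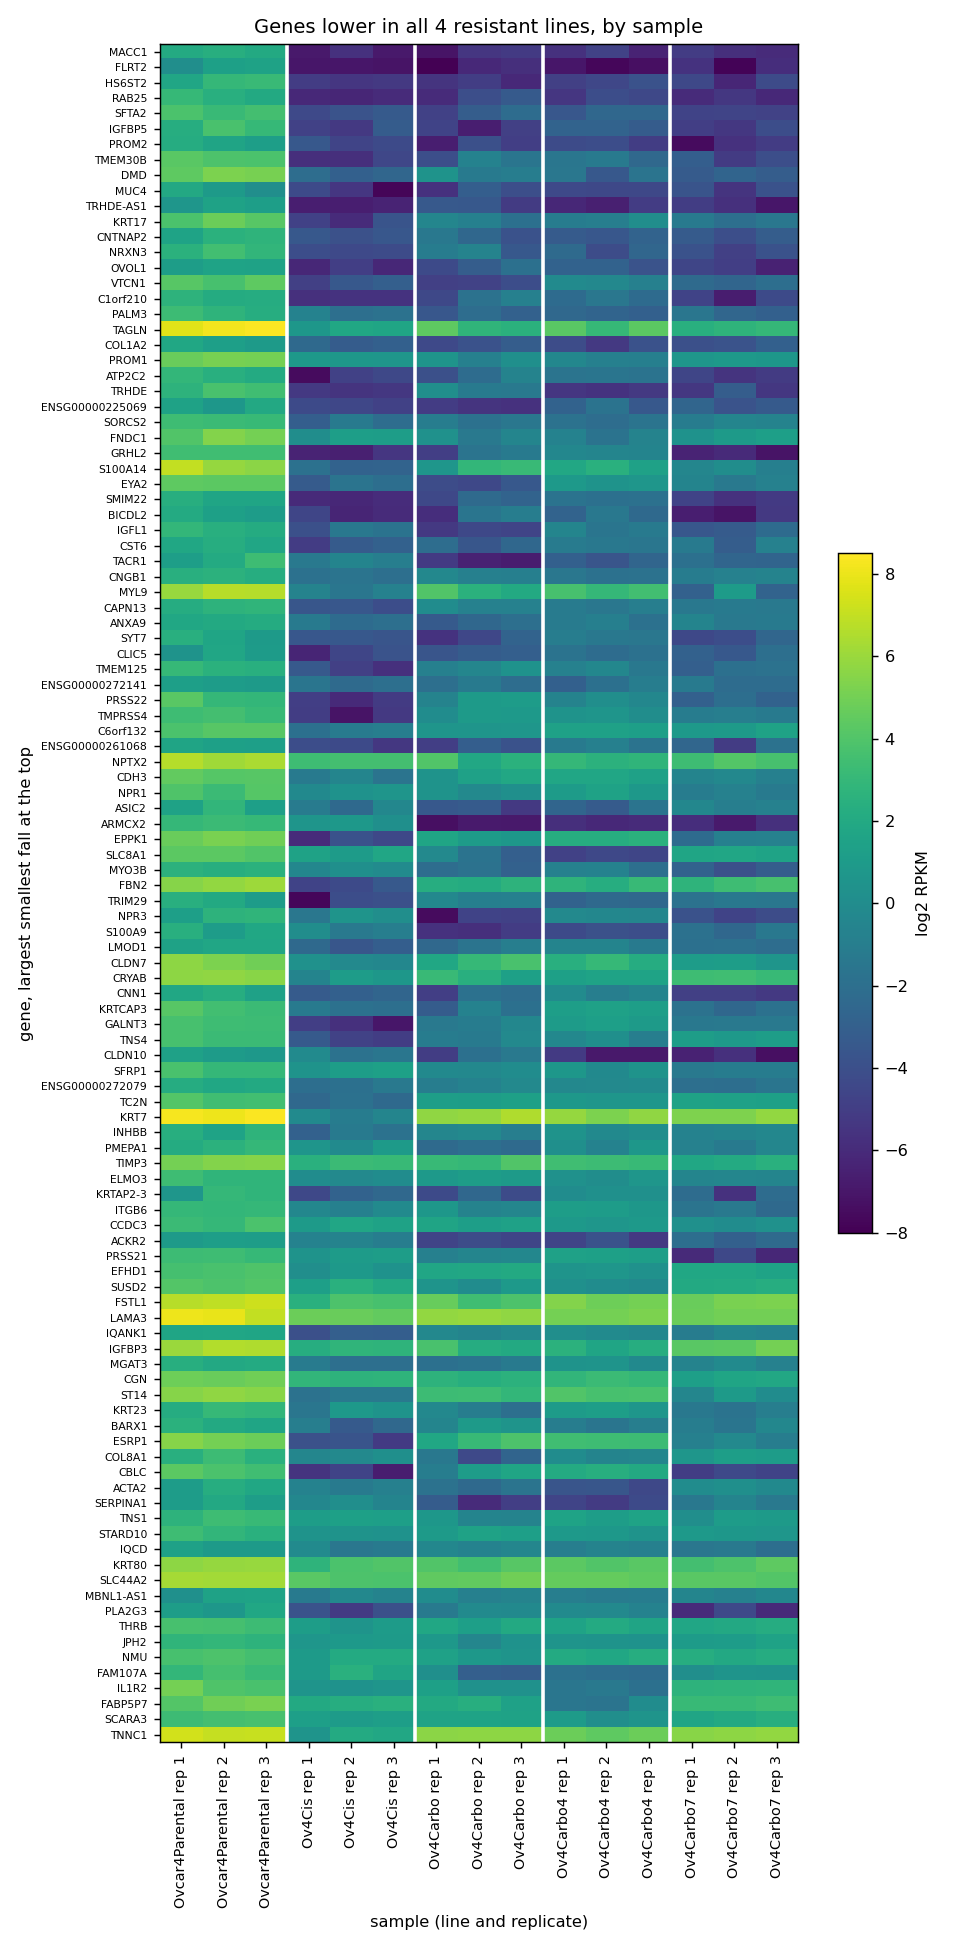
Level of 110 of the 111 genes (rows, from the largest smallest fall at the top) in each of the 15 samples (columns), as log2 RPKM on a colour scale. The parental columns are the brightest in every row, and Ov4Carbo replicate 1 differs in shade from replicates 2 and 3 in many rows.

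Across the set, differences between resistant lines were frequent. The rule set a condition on the mean of each of these lines, so the counts are given as a description. By limma on all genes (Benjamini-Hochberg adjusted p under 0.05 and a difference of at least 1 log2 unit), 65 of the 111 genes were called between Ov4Cis and Ov4Carbo, 58.6%, where 13.8% of all genes were. Ov4Cis was lower for 46 of them (5.9% of all genes) and higher for 19 (7.88%). Between Ov4Carbo4 and Ov4Cis 65 were called (58.6%, against 16.8%), with Ov4Carbo4 higher for 48 (7.72% of all genes) and lower for 17 (9.12%). Between Ov4Carbo7 and Ov4Cis 51 were called (45.9%, against 14.7%), with Ov4Carbo7 higher for 34 (7.2%) and lower for 17 (7.46%). The clones differed from each other for 60 genes (54.1%, against 20.9%), with Ov4Carbo7 lower for 41 (9.86%) and higher for 19 (11.1%). Against their source line Ov4Carbo, 39 genes were called for Ov4Carbo4 (35.1%, against 14.2%), 28 of them higher in the clone (7.58%) and 11 lower (6.64%). For Ov4Carbo7 there were 58 (52.3%, against 13.3%), 25 higher (7.72%) and 33 lower (5.62%). The F-test over the 4 lines called 100 genes (90.1%, against 72.3%).

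The same was counted away from the floor of the table. Among genes with means of at least -3 log2 RPKM in both lines compared, a restriction added after the data were seen, 29 of 60 were called between Ov4Cis and Ov4Carbo (48.3%, against 10.3% of all such genes). In the same way the shares were 26.9% for Ov4Carbo4 against Ov4Carbo (11.6% of all such genes), 47.8% for Ov4Carbo7 against Ov4Carbo (10.5%), 50.7% between the clones (17.9%), 42.6% for Ov4Carbo4 against Ov4Cis (13.9%) and 44.3% for Ov4Carbo7 against Ov4Cis (12%). On a scale of log2(RPKM + 1), which shrinks changes of rare mRNAs, the counts of the 111 genes were 20, 7, 17, 25, 24 and 14 in the order of these shares, beside 5.77%, 5.45%, 4.96%, 10.5%, 7.69% and 6.65% of all genes. The 7 genes for Ov4Carbo4 against Ov4Carbo are a share near that of all genes.

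The range among the 4 resistant means had a median of 2.77 log2 units, with extremes of 0.18 and 7.78. It was under 1 for 8 genes, MACC1, FLRT2, ENSG00000272141, NPTX2, STARD10, KRT80, SLC44A2 and MBNL1-AS1, and over 5 for 18. Ov4Cis was the lowest of the lines for 50 genes, Ov4Carbo7 for 23, Ov4Carbo for 21 and Ov4Carbo4 for 17. Ov4Carbo4 was the highest for 45. The 11 genes that the F-test did not call were MACC1, FLRT2, HS6ST2, PROM2, MUC4, CNTNAP2, PALM3, ENSG00000272141, NPTX2, KRT80 and MBNL1-AS1, named here after their values were seen. Several of them, such as MACC1, lie near the floor in every line. Others, such as KRT80 at means of 3.52, 3.93, 4.23 and 3.95 log2 RPKM in Ov4Cis, Ov4Carbo, Ov4Carbo4 and Ov4Carbo7, were at a similar moderate level.

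**Figure D4:**
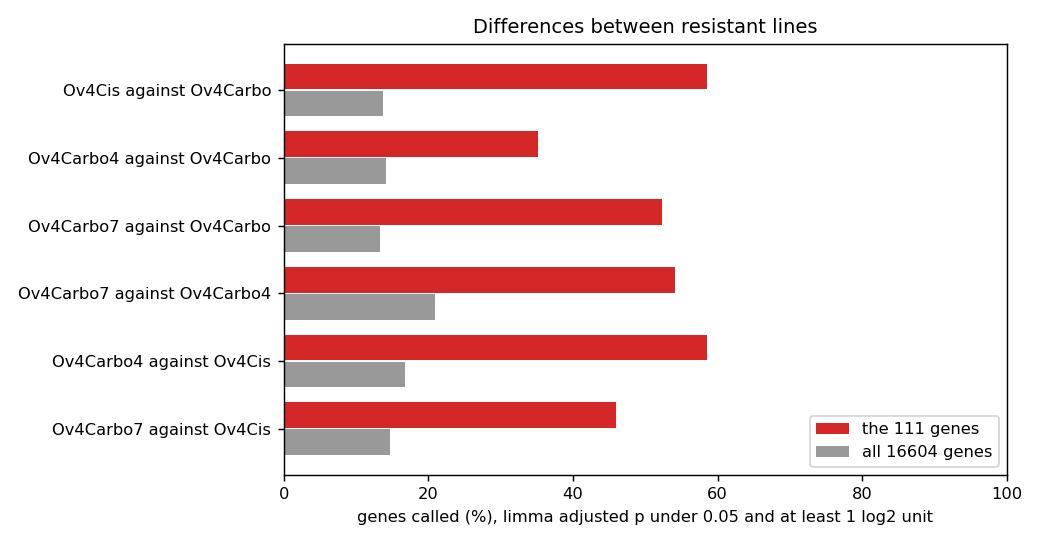
Share of genes called in each of the 6 contrasts between resistant lines (x axis, percent; limma adjusted p under 0.05 and at least 1 log2 unit), for the 111 genes in red and all 16604 genes in grey. The red bars run from 35.1% to 58.6% and the grey bars from 13.3% to 20.9%.

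The replicates of Ov4Carbo disagreed for many of these genes. Replicate 1 was more than 1 log2 unit from the mean of replicates 2 and 3 for 50 of the 111 genes (45.0%, against 10.1% of all genes), lower for 30 and higher for 20. By group, it was lower for 5 of 8 apical membrane and vesicle genes and 3 of 4 epithelial transcription and splicing factors, and for 12 contractile genes it was higher for 6 and lower for 2. BICDL2, for example, was at -5.84, -1.57 and -1.02 in the 3 replicates. The groups were formed after the values had been seen. For all genes the share was counted in either direction only, so nothing is read from the directions by group. Over the 111 genes, the root mean square distance of replicate 1 was 1.77 log2 units to the mean of Ov4Carbo7 and 2.09 to that of Ov4Carbo4. Replicates 2 and 3 were nearer to Ov4Carbo4 (1.69 and 1.64) than to Ov4Carbo7 (2.27 and 2.29). The order was the same over all genes, at 0.865 to Ov4Carbo7 and 1.05 to Ov4Carbo4 for replicate 1, and 1.05 and 0.987 to Ov4Carbo4 and 1.11 and 1.05 to Ov4Carbo7 for replicates 2 and 3. The sample titles fall into 2 numbering series, and Ov4Carbo replicate 1 shares its series with all samples of the 2 clonal lines, whereas the parental line, Ov4Cis and Ov4Carbo replicates 2 and 3 are in the other. The labels do not call these series batches. The clonal lines and the parental line share no series, and a model with a series term draws on Ov4Carbo alone, the line with samples of each, through its replicate 1 against replicates 2 and 3. Without Ov4Carbo replicate 1 the rule selected 110 genes, 108 of them among the 111, and 69, 39 and 64 of the 111 were called for Ov4Cis, Ov4Carbo4 and Ov4Carbo7 against Ov4Carbo (16.7%, 16.2% and 16.7% of all genes). Within the second series alone, 187 genes passed the limits for Ov4Cis and Ov4Carbo, including 108 of the 111. The rule had already used these samples, and here no condition was set on the clonal lines. The overlap was thus nearly given in advance, and nothing is read from it.

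The genes were spread over the genome. They lay on 21 of the 23 chromosomes with measured genes, with none on chromosomes 15 and 21. The largest shares of measured genes were on chromosome 16 (9 of 694, 1.30%), chromosome 2 (13 of 1112, 1.17%), chromosome 20 (5 of 437, 1.14%) and chromosome 11 (10 of 882, 1.13%), beside 0.669% over all genes. Chromosome 1 had 12 of 1682. On chromosome 16 the deepest falls were those of ATP2C2, SMIM22 and BICDL2, on chromosome 2 those of IGFBP5, PROM2 and TACR1, and on chromosome 20 those of ENSG00000225069, EYA2 and MYL9.

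**Figure D5:**
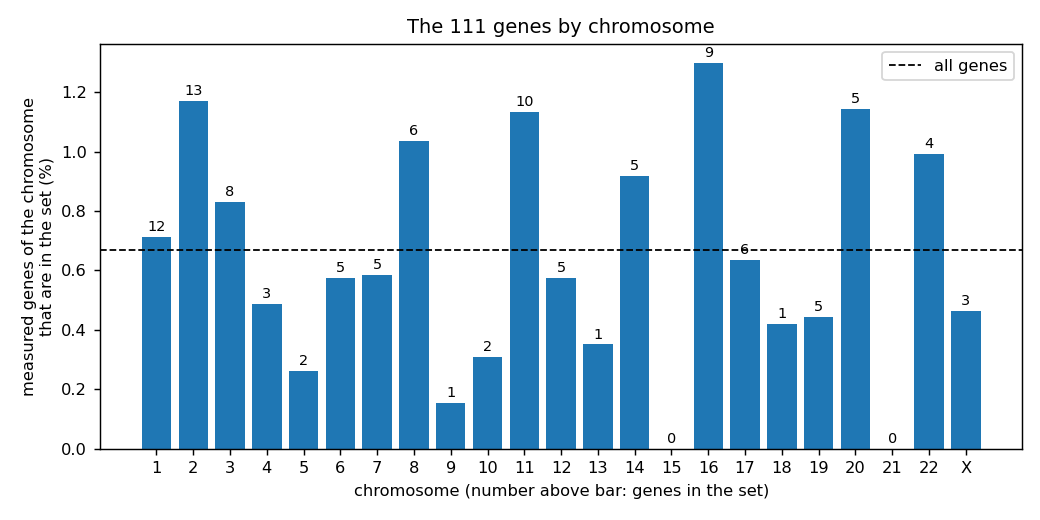
Percent of the measured genes of each chromosome that belong to the set (y axis), by chromosome (x axis), with the number of genes above each bar and the share over all genes as a dashed line. Chromosomes 16, 2, 20 and 11 have the highest shares, and chromosomes 15 and 21 have no gene of the set.

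In the order of measured genes along the chromosomes, 7 pairs of the set were direct neighbours: TMEM125 and C1orf210 on chromosome 1, IGFBP5 and TNS1 on 2, ENSG00000261068 and C6orf132 on 6, KRT80 and KRT7 as well as TRHDE and TRHDE-AS1 on 12, PRSS21 and PRSS22 on 16, and KRT23 and KRTAP2-3 on 17. Whether reads were counted by strand is not given in the sources used here, so TRHDE and its antisense transcript may share reads, as may ENSG00000261068 and C6orf132 where they overlap. In some pairs both genes had their deepest or their smallest fall in the same line. TRHDE and TRHDE-AS1 had their smallest in Ov4Carbo. TRHDE differed from the parental line by -8.66, -4.07, -8.68 and -7.87 log2 units in Ov4Cis, Ov4Carbo, Ov4Carbo4 and Ov4Carbo7, and TRHDE-AS1 by -7.66, -5.12, -7.05 and -7.04. TMEM125 and C1orf210 both had their deepest fall in Ov4Cis (-7.31 and -7.96). Other pairs had unequal falls. PRSS21 differed from the parental line by -2.37 and PRSS22 by -8.76 in Ov4Cis, whereas in Ov4Carbo7 PRSS21 had the larger fall. The differences in Ov4Cis were -2.32 for KRT80 and -8.85 for KRT7.

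Genes on either side of these pairs differed in direction. TAF8 and MRPS10 beside ENSG00000261068 and C6orf132, ELOB and FLYWCH2 beside the PRSS genes, and EBNA1BP2 beside TMEM125 had differences from the parental line between -0.75 and 1.09 in the 4 lines. TIE1, beside C1orf210, was higher by 5.34 in Ov4Cis. Lower neighbours were found in the keratin regions, where KRT86 beside KRT7 differed by -2.34, -3.23, -3.66 and -2.30 in Ov4Cis, Ov4Carbo, Ov4Carbo4 and Ov4Carbo7, and KRT13 beside KRTAP2-3 by -5.35, -2.02, -0.96 and -3.97. Both started below the parental limit of the rule, at -0.82 and 0.13. IGFBP2 beside IGFBP5 differed by -3.09, -0.61, -1.36 and -3.66. These genes outside the set were chosen for their position. A looser spacing, with at most 9 measured genes between them, linked 16 pairs, among them S100A9 with S100A14 and S100A14 with NPR1 on chromosome 1.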

How the data were processed

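PolyA-captured RNA of 15 cultures (5 lines, 3 biological replicates each) was sequenced. The values as deposited are log2 RPKM, which the authors had corrected for gene length and GC content by conditional quantile normalization (cqn), per the table's name. The submitters' processing notes name hg19, GRCh37, BWA 0.7.15-r1140 and HTSeq. The annotation and the strand setting of counting are not given in the sources used here. Read counts were not used here, so the depth per sample is unknown and no counting error is given. Values near the floor (lowest -8.18) rest on few or no reads, and their differences are uncertain in size.

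The rule for the 111 genes was applied to line means. A model with a coefficient per line was fitted to all 16604 genes and 15 samples with limma 3.58.1 in R 4.3.3, two-sided, with Benjamini-Hochberg adjustment over all genes in each contrast, and calls needed a difference of 1 log2 unit or more beside an adjusted p below 0.05. On simulated data of 16604 genes for Ov4Carbo7 against Ov4Carbo4, 181 of 200 genes changed by 2 log2 units were recovered, with 4 false calls among the unchanged genes. The changed genes were picked at random, and the noise was independent and normal, with a single SD per gene and no series effect. Error rates for the 111 genes do not follow from it. Their median SD was 0.38 in Ov4Carbo7 and 0.29 in Ov4Carbo4, against 0.16 and 0.12 for all genes. The parental contrasts chose the members and were not tested for them. The 6 contrasts among resistant lines were tested. The replicate numbers did not pair samples (same-number correlations of deviations from -0.39 to 0.44 with a median of -0.02, and 11 of 30 pairs over 0.1), so no block was used in the reported values.

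Symbols matched 16448 genes. GENCODE v29 (16499 genes) gave chromosomes and gene order only, as its build differs from the one the notes name. Promoter windows came from RefSeq (GRCh38.p14), matched by symbol. Members and lists were chosen with earlier results of these data known. Named were, of members with a symbol, the 12 with the largest smallest fall, the 8 highest in the parental line, the 5 at the limit and 5 just outside it, members of the lists, the 3 largest called differences in each of the 6 contrasts, neighbouring members, the 5 highest and the 5 lowest in the resistant lines, and the 3 deepest on each of the 3 chromosomes with the largest shares. Other members (such as CLDN10, CNN1, NPR1, IGFBP3 and TRIM29) were named after their values were seen, to fill out a group. The values of 1 member are not reported here. The alternatives tried were other limits of the rule, other scales and centrings, a term for the title series, a variance trend, a replicate block and leaving out each sample.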

Additional observations from a re-analysis of the deposited data

Results flagged for a closer look

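The falls of some genes from the parental line differed between resistant lines by a direct test of the difference (limma, adjusted p under 0.05 and at least 1 log2 unit). The 3 largest such differences of each contrast are given here in log2 units, first line minus second. They were picked as extremes of many tested differences, and no cause was examined.

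For Ov4Cis against Ov4Carbo they were 7.52 for ARMCX2, -7.24 for ESRP1 and -6.64 for KRT7. For Ov4Carbo4 against Ov4Cis they were 7.78 for CBLC, 7.675 for ESRP1 and 7.13 for EPPK1, all higher in the clone. For Ov4Carbo7 against Ov4Cis they were 7.40 for FBN2, -6.64 for ARMCX2 and -6.45 for PRSS21. Between the clones, Ov4Carbo7 against Ov4Carbo4, they were -6.91 for PRSS21, -6.83 for CBLC and 6.28 for SLC8A1. Against the source line Ov4Carbo, Ov4Carbo4 differed by 5.32 for NPR3, 4.67 for EYA2 and -4.61 for TRHDE, and Ov4Carbo7 by -5.27 for CBLC, -4.996 for PRSS21 and -4.91 for PLA2G3. In each of these 18 differences the 3 values of one line lay beyond the 3 values of the other. The choice of the largest called differences favours such a separation, and nothing is read from it.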

How the results depend on the processing

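The number of selected genes was 192 with a fall of 1 log2 unit and 73 with a fall of 2, against 111. It was 142 with a parental mean of at least 0 and 84 with at least 2. On log2(RPKM + 1) it was 81, and 31 of the 111 genes were lost. In the second title series only it was 187, where no condition is set on the clonal lines. Leaving out a sample gave 104 to 120. The number below -3 in all 4 lines was 8, 14 at a limit of -2, and 8 to 10 with a resistant sample left out. Parental samples were not left out for this count. FLRT2, MUC4 and TRHDE-AS1 had parental means of 1.02, 1.04 and 1.13, near the limit of the rule, so their place in the set depends on the parental replicates. For members called, in the order Ov4Cis against Ov4Carbo, Ov4Carbo4 against Ov4Carbo, Ov4Carbo7 against Ov4Carbo, Ov4Carbo7 against Ov4Carbo4, Ov4Carbo4 against Ov4Cis and Ov4Carbo7 against Ov4Cis, the counts were 20, 7, 17, 25, 24 and 14 on log2(RPKM + 1), beside 5.77%, 5.45%, 4.96%, 10.5%, 7.69% and 6.65% of all genes. They were 17, 6, 16, 20, 18 and 18 among genes of mean log2 RPKM of at least 1, where 34 members are tested (F-test 32), beside 6.98%, 8.27%, 7.07%, 13.7%, 9.94% and 8.65% of such genes (F-test 74.9%), and 29, 21, 33, 36, 26 and 27 among members of at least -3 in both lines. A term for the title series gave 38 for Ov4Carbo7 against Ov4Carbo (9.4% of all genes, against 13.3% without it). Leaving out a sample gave 59 to 69, 31 to 39, 49 to 64, 55 to 61, 62 to 64 and 42 to 50, and 96 to 102 for the F-test. On log2(RPKM + 1) NPR3, TRHDE, PRSS21 and PLA2G3 no longer passed against Ov4Carbo (0.80, -0.66, -0.71 and -0.74). No difference reversed in the alternatives run.

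With a replicate block the counts were 64, 39, 56, 58, 64 and 47, and 101 for the F-test, beside 13.4%, 13.8%, 13%, 20.7%, 16.6% and 14.4% of all genes and 68.6% for the F-test. The numbers do not pair the samples (5 of 15 samples correlated best with a sample of their own number). The comparison of promoter sequence over the set is void because 61.3% of its genes had a window, under the 80% required. Unknown depth limits all values below about 0.125 RPKM.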
